A study of Homo sapiens with 6 samples.

Results

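The BCL2 family apoptosis genes described here are 10 genes taken as a list by name and matched to their Ensembl identifiers in a table of 62754 genes. They are the anti-apoptotic BCL2, BCL2L1 and MCL1, the effectors BAX and BAK1, and the BH3-only genes BID, BAD, BCL2L11, BBC3 and PMAIP1. All 10 were matched, and all 10 passed the filter on low counts that left 20992 genes to test. The rule lists genes by name and role and uses no measured value of its own. In FAM60A-knockout cells, 2 of the 10 genes fell in a test over all libraries: BCL2L1, which encodes the survival protein BCL-xL, was 2.08-fold lower, and PMAIP1, which encodes the death-promoting protein NOXA, was 1.76-fold lower. The other 8 did not pass that test, and 5 of them (MCL1, BAX, BAK1, BID and BCL2L11) were called lower when 1 control library, control replicate 3, was left out, so its value is given apart throughout. Of all genes tested, 16.6% were called over the 6 libraries and 65.6% without control replicate 3, and 33.2% of all genes were called lower in the latter fit.

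RNA was measured by bulk sequencing in 3 control libraries and 3 FAM60A-knockout libraries of HEK293 cells, a line of human embryonic kidney origin grown in DMEM with 10% serum and Glutamax. The titles name HEK293 and the cell line label names HEK293T, the derivative that carries the SV40 large T antigen. The knockout population was selected with puromycin as a pool, not as a single clone, after it was transfected with Cas9 and guide RNAs against 3 regions of FAM60A (current symbol SINHCAF), which encodes a component of the Sin3/HDAC complex that removes acetyl groups from histones. What the control cells received is not given in the sources used here, and nothing there says that the 3 libraries of a group came from separate cultures, so the p-values measure only the spread between libraries, which may be technical.

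BCL2 family proteins control the mitochondrial route to apoptosis by binding each other. BAX and BAK1 form pores in the outer mitochondrial membrane that release cytochrome c, which starts the caspase cascade. BCL2, BCL-xL and MCL1 hold these effectors and their activators in check, and BH3-only proteins are induced or modified by stress to neutralise the guardians or to activate the effectors directly. HEK293 cells carry adenoviral E1A and E1B genes, one of which encodes a viral BCL2 homolog. The study measured apoptosis by Annexin V staining in control and FAM60A-knockout cells, and the comparison below asks how the RNA of the family differed between them. RNA was measured here, and the amount or binding of the proteins was not.

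Total counts lay between 88361827 and 93346824 per library, so counting error was small for every member. FAM60A RNA fell from 113, 106 and 132 CPM (read counts divided by library size after TMM scaling) in control replicates 1, 2 and 3 to 67.5, 66.0 and 61.7 CPM in knockout replicates 1, 2 and 3. Its log2 fold change was −0.85 (standard error, SE, 0.11; adjusted p = 0.00863 by edgeR), and the adjusted p rose to 0.0719, 0.0571 and 0.0736 without knockout replicate 1, 2 or 3. Guide RNAs act on the gene, so RNA that remains need not encode the protein. Of 7 HEK293 markers, VIM, KRT8, KRT18, NEFL and LIN28B were above 50 CPM in every library, while PAX2 and NEFM did not exceed 5.97 CPM. Of 6 markers of MDA-MB-231 cells, the other line of the study, MMP1 and AXL did not exceed 1.19 CPM, TGFBI and PLAU did not exceed 4.65 CPM, and CD44 and CAV1 lay between 21.7 and 91.7 CPM. Of the HEK293 markers, 1 of 7 was called lower over the 6 libraries and 5 of 7 without control replicate 3, and their part in the results below was not tested. Control replicate 3 stood apart from control replicates 1 and 2: in VIM it held 299 CPM against 694 and 707 CPM, and in MYC 207 CPM against 19.5 and 21.0 CPM. At an adjusted p of at most 0.05, 16.6% of all genes tested were called over the 6 libraries, and 65.6% were called when control replicate 3 was left out.

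Promoters are shown for the 2 genes that fell and for the effector BAX, because they are where a chromatin complex such as Sin3/HDAC could act and because they differ in composition. Each is the 250 bases before a transcription start of RefSeq, genome build GRCh38.p14, printed 5′ to 3′ on the gene's strand. RefSeq entries matched 9 of the 10 members. Capitals mark matches on either strand to 5 short motifs: GGGCGG, the GC box bound by SP1, held by 42.6% of 35116 promoters; TGACGT, the core of the cyclic AMP response element, by 7.1%; TATAAA, the TATA box, by 10.7%; CACGTG, an E-box, by 6.34%; and GGAATG, the motif of TEAD factors, by 11.9%. The PMAIP1 window lies at chr18:59899746-59899995 on the plus strand. The 2 BCL2L1 windows lie at chr20:31723964-31724213 and chr20:31722869-31723118 on the minus strand. The BAX window lies at chr19:48954625-48954874 on the plus strand.
PMAIP1: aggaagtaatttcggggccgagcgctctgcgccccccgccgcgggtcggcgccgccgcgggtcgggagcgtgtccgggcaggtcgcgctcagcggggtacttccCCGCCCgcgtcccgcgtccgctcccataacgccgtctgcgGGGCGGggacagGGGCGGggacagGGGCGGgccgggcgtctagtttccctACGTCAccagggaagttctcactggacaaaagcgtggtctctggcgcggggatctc
BCL2L1 start 1: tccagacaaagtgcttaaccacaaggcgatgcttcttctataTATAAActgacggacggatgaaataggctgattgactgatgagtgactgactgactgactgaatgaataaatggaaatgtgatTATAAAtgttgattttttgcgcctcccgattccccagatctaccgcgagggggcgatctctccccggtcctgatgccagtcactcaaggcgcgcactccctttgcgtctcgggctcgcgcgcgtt
BCL2L1 start 2: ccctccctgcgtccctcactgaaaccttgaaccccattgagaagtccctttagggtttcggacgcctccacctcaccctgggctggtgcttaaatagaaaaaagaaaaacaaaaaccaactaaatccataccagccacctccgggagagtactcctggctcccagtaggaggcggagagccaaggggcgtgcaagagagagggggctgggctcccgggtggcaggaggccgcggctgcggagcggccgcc
BAX: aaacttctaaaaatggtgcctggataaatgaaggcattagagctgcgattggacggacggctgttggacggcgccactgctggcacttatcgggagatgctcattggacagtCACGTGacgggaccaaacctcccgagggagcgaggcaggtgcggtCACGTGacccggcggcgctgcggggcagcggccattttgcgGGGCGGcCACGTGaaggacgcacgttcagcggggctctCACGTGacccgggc

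The PMAIP1 window held 4 GC boxes, 146, 106, 94 and 82 bases before the start, and 1 cyclic AMP response element core at 56 bases. The BCL2L1 window at the first start held TATAAA at 208 and 125 bases and no GC box, and the window at the second start held none of the 5 motifs. The BAX window held CACGTG 4 times, at 138, 93, 45 and 14 bases before the start, with 1 GC box at 52 bases. Among the other members, the BID, BAK1, BCL2L11 and BAD windows held at least 1 GC box at 1 or more of their starts. The cyclic AMP response element core was also found in BAD windows, and CACGTG in windows of BID and BBC3. GGAATG was found in no window of the 9 members. The 2 genes that fell thus shared none of the 5 motifs. These are matches of letters and not measured binding sites.

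BCL2L1 (ENSG00000171552) was the only anti-apoptotic member that fell. Its protein BCL-xL sits in the outer mitochondrial membrane and binds BAX, BAK1 and most BH3-only proteins. Its levels were 21.9, 26.1 and 19.9 CPM in control replicates 1, 2 and 3, and 10.6, 12.0 and 10.1 CPM in knockout replicates 1, 2 and 3. Every knockout library lay below every control library, and control replicate 3 was nearer to the other controls than to the knockout libraries. The control mean was 22.6 ± 3.19 CPM and the knockout mean 10.9 ± 0.982 CPM (SD, n = 3 each). The log2 fold change was −1.06 (SE 0.15, adjusted p = 0.0102 by edgeR), which made BCL2L1 the only member called with at least a 2-fold change, a rule met by 7.06% of all genes tested. Leaving out control replicate 3 gave a log2 fold change of −1.17 (edgeR adjusted p = 4.58e-10), and without knockout replicate 1, 2 or 3 the adjusted p was 0.0793, 0.0516 and 0.0759, within a range of 4.58e-10 to 0.0793 over 12 alternatives. ABALON, an annotated RNA on the opposite strand that overlaps 41.3% of the exonic bases of BCL2L1, held at most 1 count in any library.

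BCL2 (ENSG00000171791), the founding member of the family, was the one gene fitted higher in knockout cells. Its levels were 20.4, 19.8 and 16.5 CPM in the controls and 22.4, 22.9 and 22.6 CPM in the knockout libraries. The knockout libraries lay above every control library, and the means were 18.9 ± 2.11 and 22.6 ± 0.241 CPM (SD, n = 3). Its log2 fold change of 0.26 (SE 0.12) did not pass the test (edgeR adjusted p = 0.178). It passed in none of the 12 alternatives, which gave adjusted p from 0.117 to 0.415.

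MCL1 (ENSG00000143384) encodes a short-lived guardian that binds NOXA and BIM with high affinity. Its levels were 283, 273 and 165 CPM in control replicates 1, 2 and 3, and 245, 233 and 231 CPM in the knockout libraries. The knockout libraries lay below control replicates 1 and 2 and above control replicate 3. The means were 240 ± 65.5 and 236 ± 7.72 CPM (SD, n = 3), and the log2 fold change was −0.02 (SE 0.21, adjusted p = 0.947 by edgeR). MCL1 was called lower without control replicate 3, at a log2 fold change of −0.27 (edgeR adjusted p = 0.00443), and the adjusted p of the alternatives ran from 0.00443 to 0.994.

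**Figure D1:**
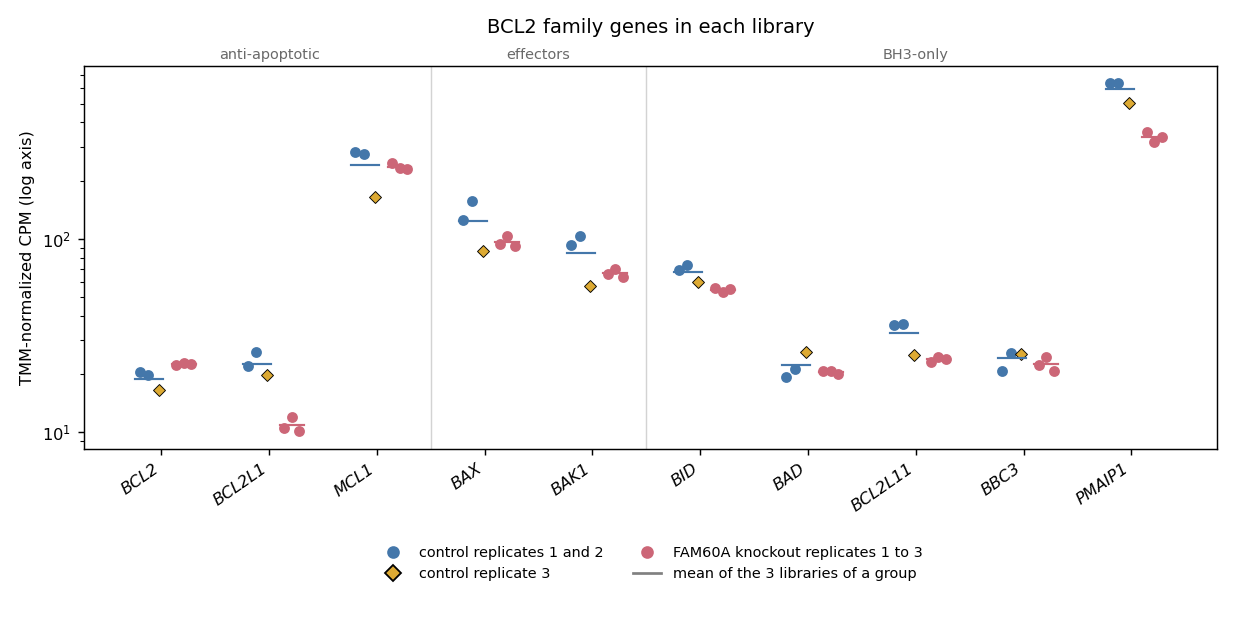
Normalised level (CPM, log axis) of each of the 10 members in every library, with control replicate 3 as a separate symbol and lines for the group means. Knockout libraries lie below every control library in BCL2L1, BID, BCL2L11 and PMAIP1, above every control library in BCL2, and overlap the controls in the remaining 5 genes.

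The effectors BAX (ENSG00000087088) and BAK1 (ENSG00000030110) followed one pattern. BAX, which moves from the cytosol to mitochondria when activated, stood at 125, 157 and 86.8 CPM in the controls and 93.8, 104 and 92.3 CPM in the knockout libraries. BAK1, which resides at mitochondria, stood at 92.9, 104 and 57.0 CPM in the controls and 66.0, 69.7 and 63.2 CPM in the knockout libraries. In both genes the knockout libraries lay below control replicates 1 and 2 and above control replicate 3, so the groups overlapped.

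The log2 fold change of BAX was −0.35 (SE 0.21, adjusted p = 0.290 by edgeR) and that of BAK1 was −0.35 (SE 0.22, adjusted p = 0.301 by edgeR). Both were called lower without control replicate 3, BAX at −0.58 (edgeR adjusted p = 8.39e-06) and BAK1 at −0.60 (edgeR adjusted p = 6.84e-07). Over the alternatives the adjusted p ran from 8.39e-06 to 0.686 for BAX and from 6.84e-07 to 0.652 for BAK1. Reads of BAK1 can be shared with its processed pseudogene BAK1P1, which held 529, 584 and 321 counts in the controls and 411, 458 and 432 counts in the knockout libraries, so the split between the 2 genes is uncertain.

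PMAIP1 (ENSG00000141682) was the BH3-only gene that fell. Its product NOXA binds mainly MCL1 and is induced by the integrated stress response. Its levels were 636, 638 and 504 CPM in control replicates 1, 2 and 3, and 357, 315 and 337 CPM in the knockout libraries. The groups did not overlap, and control replicate 3 was nearer to the other controls than to the knockout libraries. The control mean of 593 ± 76.5 CPM compared with 336 ± 21.2 CPM in knockout cells (SD, n = 3), and PMAIP1 had a log2 fold change of −0.82 (SE 0.13, adjusted p = 0.0123 by edgeR). It was −0.95 without control replicate 3 (edgeR adjusted p = 1.53e-09). The call was lost without control replicate 2 (edgeR adjusted p = 0.0538) and without knockout replicate 1, 2 or 3 (0.0776, 0.0693 and 0.0836). A further alternative, with the replicate number as a block, gave 0.0575, and edgeR adjusted p ran from 1.53e-09 to 0.0836 over the alternatives.

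BID (ENSG00000015475) and BCL2L11 (ENSG00000153094) had knockout libraries below every control library without passing the test. BID, which caspase-8 cleaves to link death receptors to mitochondria, stood at 69.3, 73.0 and 59.8 CPM in the controls and 55.8, 52.9 and 54.8 CPM in the knockout libraries. The fitted log2 change was −0.31 (SE 0.10, adjusted p = 0.0901 by edgeR). It was called in 3 of the 12 alternatives: without control replicate 3 (log2 fold change −0.42, edgeR adjusted p = 4.33e-05), by library size without TMM (0.0383) and by DESeq2 (0.0478), within a range of 4.33e-05 to 0.259.

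BCL2L11 encodes BIM, which binds all guardians and activates BAX and BAK1. It stood at 36.0, 36.4 and 25.2 CPM in the controls and 23.0, 24.5 and 23.9 CPM in the knockout libraries, with control replicate 3 next to the knockout values. BCL2L11 had a log2 fold change of −0.45 (SE 0.16, adjusted p = 0.102 by edgeR). Without control replicate 3 it was −0.63 (edgeR adjusted p = 2.3e-07), the lowest of a range that reached 0.288 over the alternatives. MIR4435-2HG on the opposite strand overlaps 10.8% of the exonic bases of BCL2L11. The libraries were prepared to keep strand, but the strand setting used in counting is not given in the sources used here.

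BAD and BBC3 were called neither over all libraries nor in any of the 12 alternatives. BAD (ENSG00000002330), which growth-factor kinases inactivate by phosphorylation, stood at 19.4, 21.2 and 26.0 CPM in the controls and 20.7, 20.7 and 19.9 CPM in the knockout libraries. BBC3 (ENSG00000105327) encodes PUMA, a BH3-only protein induced by DNA damage, and stood at 20.8, 25.8 and 25.5 CPM in the controls and 22.3, 24.5 and 20.8 CPM in the knockout libraries. The groups overlapped in both genes. Log2 fold changes were −0.12 (SE 0.14) for BAD and −0.09 (SE 0.13) for BBC3, with edgeR adjusted p of 0.576 and 0.644. GPR137 on the opposite strand overlaps 23.7% of the exonic bases of BAD.

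**Figure D2:**
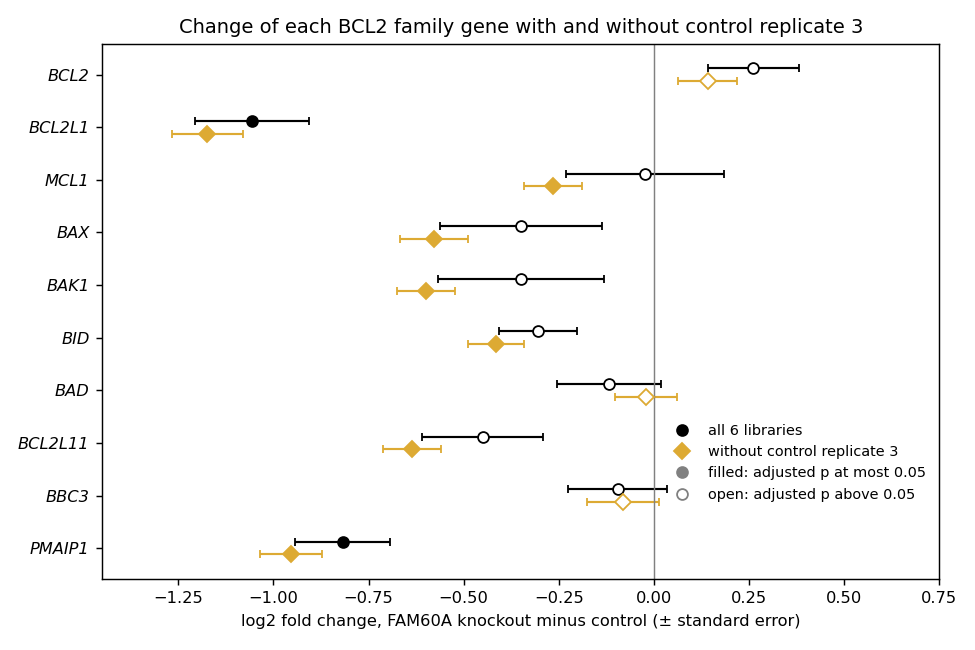
Log2 fold change of each member, knockout minus control, with bars of 1 SE, over all 6 libraries and without control replicate 3. BCL2L1 at −1.06 and PMAIP1 at −0.82 are called in both fits, MCL1, BAX, BAK1, BID and BCL2L11 only without control replicate 3, and BCL2, BAD and BBC3 in neither.

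Over the list, 2 of 10 members were called, both lower, beside 16.6% of all genes tested called in either direction, 8.67% called lower and 7.96% called higher. Counted without a test, 4 of 10 members had every knockout library below every control library, beside 20.1% of all genes tested. The median log2 fold change of the 10 members was −0.33, beside −0.01 over all genes tested. Of the members 9 of 10 were fitted lower, beside 10628 of the 20992 genes tested. Without control replicate 3, 7 of 10 members were called, all lower, beside 65.6% of all genes called in either direction and 33.2% called lower, and the median of the members was −0.50. Genes of every role were among the 7: 2 of 3 anti-apoptotic genes, both effectors, and 3 of 5 BH3-only genes. In edgeR over the 6 libraries, 4 members had an unadjusted p under 0.05, and the share of all genes under it was not counted. Fewer cells of a kind and less RNA per cell cannot be told apart in bulk RNA.

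Control replicate 3 took a different place from member to member. Its log2 CPM lay below the mean of control replicates 1 and 2 by 0.78 in BAK1, by 0.75 in MCL1, by 0.69 in BAX and by 0.52 in BCL2L11. In PMAIP1 and BCL2L1 it lay 0.34 and 0.27 below that mean, while the knockout mean lay 0.92 and 1.14 below it. In MCL1, BAX and BAK1 control replicate 3 lay farther down than the knockout libraries, and in BAD it lay above both other controls, by 0.36 over their mean. In BBC3 it lay 0.14 above that mean and below control replicate 2. It was nearer to the knockout mean than to the mean of control replicates 1 and 2 in 6 of 10 members, beside 58.9% of all genes tested. Why the 5 calls differ with this library was not tested, and with 1 such library it cannot be told which controls represent the control cells.

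**Figure D3:**
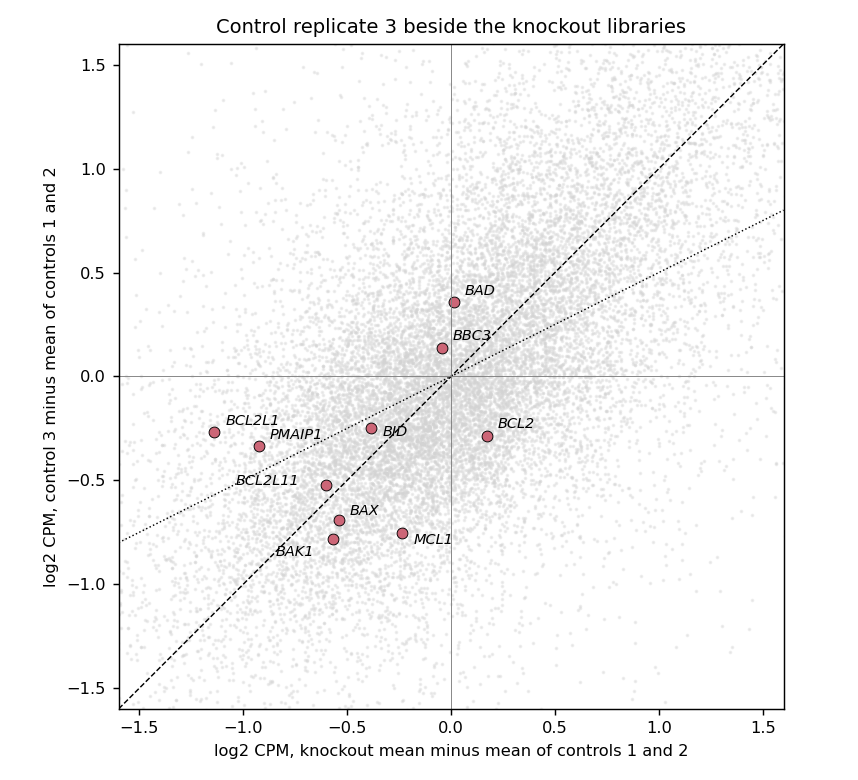
Log2 CPM relative to the mean of control replicates 1 and 2, with the knockout mean on one axis and control replicate 3 on the other, for all genes tested (grey) and the 10 members (named). The dashed line marks equal values and the dotted line the halfway point. BCL2L1 and PMAIP1 show knockout shifts of −1.14 and −0.92 against −0.27 and −0.34 in control replicate 3, and 3011 genes lie beyond the axis limits of 1.6.

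Compared per length, the members differed widely in level. Counts per kilobase of exon were scaled to the same sum in every library (TPM), and TPM is used here only to order genes and to form ratios within a library. PMAIP1 led in control cells at 826 ± 138 TPM (SD, n = 3), followed by BAX at 145 ± 45.0, MCL1 at 118 ± 36.2 and BAK1 at 117 ± 37.0 TPM. By this length the ranges of 1 SD of these 3 overlapped, though BAX lay above MCL1 and above BAK1 within each control library. BID at 46.4 ± 6.29 and BAD at 39.3 ± 4.29 TPM came next, with overlapping ranges of 1 SD, followed by BBC3 at 22.9 ± 2.10 TPM. BCL2L1 at 16.4 ± 2.68 and BCL2L11 at 14.7 ± 3.38 TPM did not differ beyond their spread, and BCL2 was lowest at 4.56 ± 0.692 TPM.

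In knockout cells PMAIP1 was again highest, at 381 ± 18.1 TPM, and BCL2 lowest, at 4.45 ± 0.118 TPM. MCL1 at 94.2 ± 2.09 TPM stood beside BAX at 92.7 ± 7.23 TPM, within their spread, and BCL2L11 at 8.76 ± 0.420 TPM stood above BCL2L1 at 6.44 ± 0.662 TPM. The order depends on the length used. With the canonical transcript of BAX, 795 bases in place of the 2587 bases of all its exons, and likewise for the other genes, BAX stood at 304 ± 91.0 TPM in control cells, above MCL1 at 120 ± 36.1 and BAK1 at 76.6 ± 23.7 TPM, and at 208 TPM in knockout cells, above MCL1 at 102 TPM. By that length BCL2L11 at 7.97 ± 0.358 and BCL2L1 at 7.22 ± 0.657 TPM in knockout cells overlapped within 1 SD. BCL2L11 was still the higher within each knockout library.

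**Figure D4:**
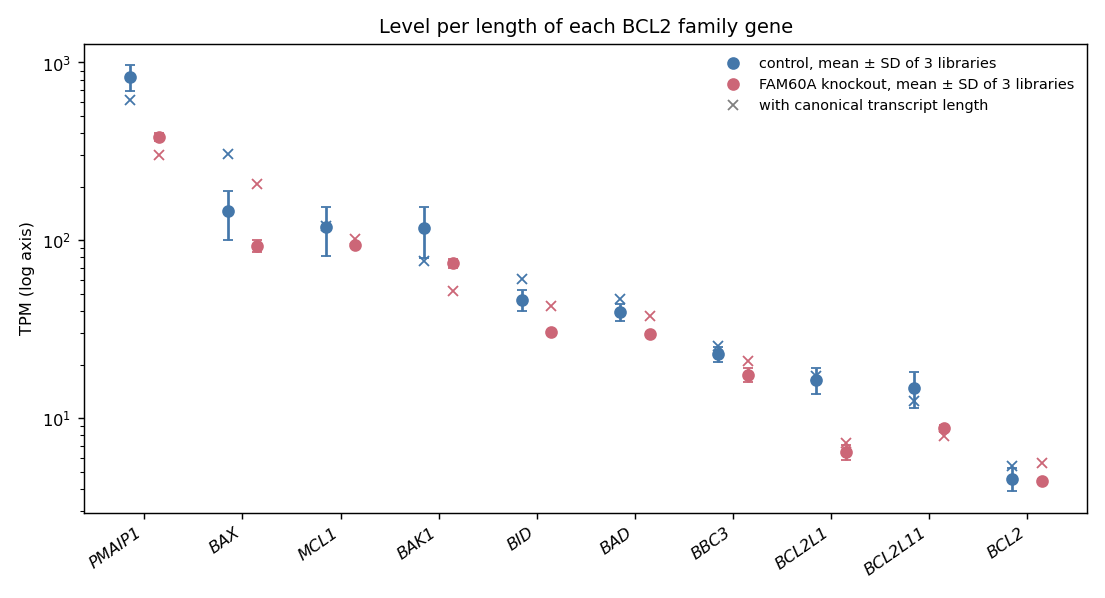
Level per length (TPM, log axis) of each member in control and knockout cells, ordered by the control mean. PMAIP1 is highest and BCL2 lowest in both groups, at 826 and 4.56 TPM in control cells.

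Ratios within a library, which do not depend on scaling between libraries, differed in opposite directions for different pairs. They are descriptions and were not tested. PMAIP1 per MCL1, a death-promoting ligand against its main guardian, was 6.40, 6.65 and 8.71 in controls, against 4.15, 3.84 and 4.15 in knockout libraries. BAX per BCL2L1 was 9.24, 9.78 and 7.09 in controls, against 14.4, 14.0 and 14.8 in knockout libraries. The first ratio was lower and the second higher in every knockout library than in any control library.

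BCL2L11 per BCL2L1 was 1.02, 0.867 and 0.790 in controls, against 1.35, 1.27 and 1.47 in knockout libraries. BCL2L1 per BCL2, a ratio between 2 guardians, was 3.23, 3.97 and 3.62 in controls, against 1.42, 1.58 and 1.34 in knockout libraries. BAX per BCL2 was 29.8, 38.8 and 25.7 in controls, against 20.4, 22.1 and 19.9 in knockout libraries, so BAX RNA stood higher relative to BCL2L1 and lower relative to BCL2. None of these 5 ratios overlapped between the groups, but each holds BCL2L1, PMAIP1 or BCL2, whose CPM did not overlap either. How often the ratios of other gene pairs separate the groups was not counted. PMAIP1 made up 61.6%, 59.1% and 63.6% of the summed TPM of the 10 members in controls, against 53.0%, 49.1% and 52.4% in the knockout libraries. By canonical transcript length these shares were 48.6%, 45.3% and 50.4%, against 40.0%, 36.0% and 39.3%.

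Of 13 further BCL2 family genes, 11 passed the filter on low counts and 3 were called: BMF lower, BNIP3 and BNIP3L higher. BMF, a BH3-only gene, stood at 29.4, 29.4 and 15.0 CPM in the controls and 11.7, 11.8 and 12.0 CPM in the knockout libraries, with a log2 fold change of −1.05 (SE 0.27, adjusted p = 0.0439 by edgeR). BNIP3, a mitochondrial protein of mitophagy that is induced by hypoxia, stood at 32.2, 32.1 and 53.4 CPM in the controls and 150, 144 and 136 CPM in the knockout libraries, a 3.65-fold rise (log2 fold change 1.87, SE 0.22, adjusted p = 0.00659 by edgeR). In both genes no knockout library overlapped a control library, and control replicate 3 was displaced towards the knockout level.

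BNIP3L, the mitophagy receptor NIX, stood at 53.7, 56.4 and 37.5 CPM in the controls and 86.9, 86.1 and 76.5 CPM in the knockout libraries, with a log2 fold change of 0.76 (SE 0.17, adjusted p = 0.0313 by edgeR). BCL2L14 held between 4 and 20 counts per library and had a log2 fold change of 1.09 (edgeR adjusted p = 0.216), with overlapping groups. The median log2 fold change of the 11 genes was 0.11. The 3 calls were 27.3% of the 11 genes, beside 16.6% of all genes tested. Leaving out control replicate 3 gave 7 calls, 2 lower and 5 higher, or 63.6%, beside 65.6% of all genes. BMF lost its call in 7 of the 12 alternatives, BNIP3L in 6 and BNIP3 in 2, with edgeR adjusted p up to 0.169, 0.134 and 0.0565. BMF lost it without any library other than control replicate 3 (edgeR adjusted p from 0.121 to 0.169), as did BNIP3L (0.0664 to 0.134), and BNIP3 without knockout replicate 1 or 3 (0.0565 and 0.0527).

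Downstream of the mitochondria, 3 of 18 genes were called. BIRC3, an inhibitor of apoptosis protein and target of NF-κB, rose 5.97-fold, from 2.01, 1.73 and 3.08 CPM in the controls to 14.9, 12.1 and 13.8 CPM in the knockout libraries (log2 fold change 2.58, SE 0.26, adjusted p = 0.00497 by edgeR). It was called in all 12 alternatives, with adjusted p from 6.13e-21 (DESeq2) to 0.0484 (edgeR without knockout replicate 1). HTRA2, a protease released from mitochondria that degrades inhibitor of apoptosis proteins, rose from 52.7, 59.5 and 56.4 to 75.9, 78.8 and 70.6 CPM (log2 fold change 0.42, SE 0.09, adjusted p = 0.0309 by edgeR). LOXL3 on the opposite strand overlaps 27.5% of its exonic bases.

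DFFB, the nuclease that cuts DNA between nucleosomes in dying cells, fell from 14.6, 14.6 and 18.8 to 10.3, 11.3 and 10.1 CPM (log2 fold change −0.60, SE 0.15, adjusted p = 0.0442 by edgeR). HTRA2 was called in 4 of the 12 alternatives and DFFB in 5. Both lost their calls with no filter on low counts (edgeR adjusted p = 0.0598 and 0.0785), and HTRA2 also by library size without TMM (0.0566). Both also lost them without any library other than control replicate 3, with edgeR adjusted p from 0.0823 to 0.141 and from 0.0765 to 0.188. BIRC5, or survivin, stood at 238, 254 and 258 CPM in the controls and 236, 257 and 221 CPM in the knockout libraries (edgeR adjusted p = 0.632). The 18 genes, cytochrome c, APAF1 and the caspases among them, had a median log2 fold change of 0.08. The 3 calls were 16.7% of the list, beside 16.6% of all genes tested, and without control replicate 3 the 11 calls, 5 lower and 6 higher, were 61.1%, beside 65.6%.

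**Figure D5:**
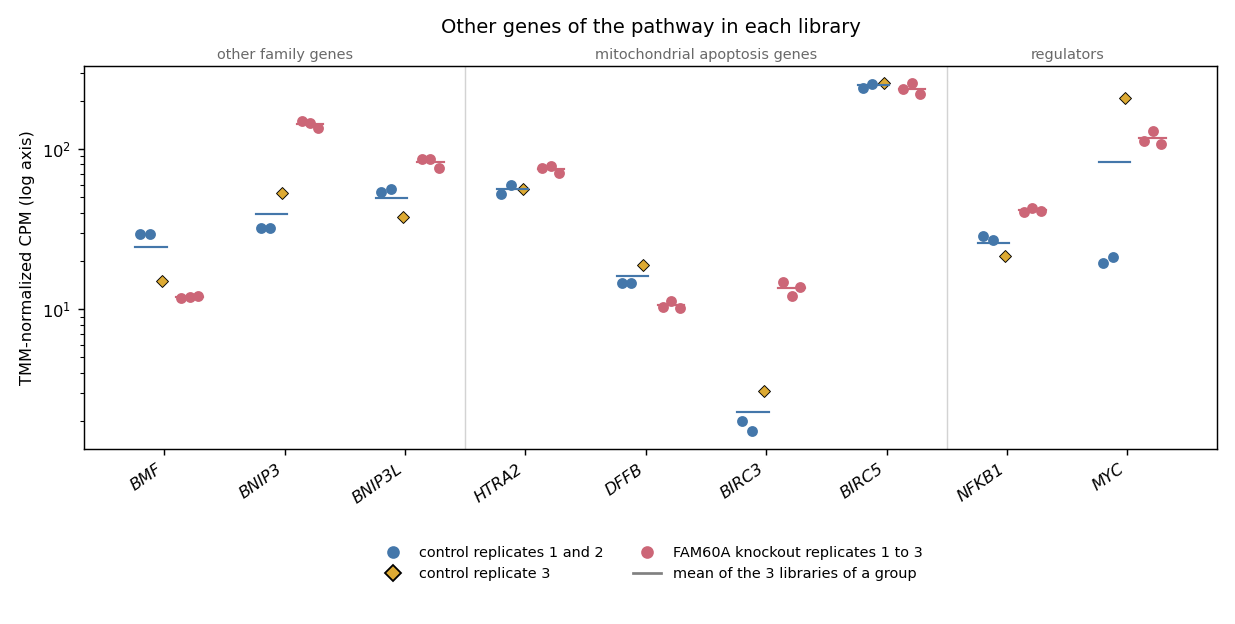
Normalised level (CPM, log axis) in every library of the genes named from the further family, downstream and regulator lists other than BCL2L14, with control replicate 3 as a separate symbol. BNIP3, BNIP3L, HTRA2, BIRC3 and NFKB1 lie higher and BMF and DFFB lower in every knockout library, while MYC in control replicate 3 (207 CPM) lies above the knockout libraries.

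Among 18 regulators of the family's transcription or protein stability, NFKB1 was the 1 gene called. NFKB1, which encodes the p105 and p50 subunits of NF-κB, rose from 28.7, 27.2 and 21.4 CPM to 40.7, 42.6 and 40.7 CPM (log2 fold change 0.68, SE 0.13, adjusted p = 0.0216 by edgeR). The call was lost without any library other than control replicate 3, with edgeR adjusted p from 0.0558 to 0.105.

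MYC, a transcription factor that sensitises cells to apoptosis, showed how far 1 library can move a value. It stood at 19.5, 21.0 and 207 CPM in control replicates 1, 2 and 3, and at 112, 130 and 108 CPM in the knockout libraries. The log2 fold change was 0.50 (SE 0.91, adjusted p = 0.731 by edgeR) over the 6 libraries and 2.50 (edgeR adjusted p = 1.62e-15) without control replicate 3, within a range of 1.62e-15 to 0.990. The 18 regulators had a median log2 fold change of −0.05, and 9 were called without control replicate 3, 4 lower and 5 higher. These calls were 5.56% of the list over the 6 libraries, beside 16.6% of all genes tested, and 50.0% without control replicate 3, beside 65.6%.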

How the data were processed

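Gene-level RNA was compared between 3 control and 3 FAM60A-knockout libraries. The authors deposited a table of raw whole-number counts for Ensembl genes. Their methods name Salmon on hg38, while the submitters' processing notes name STAR 2.7.10b and featureCounts 2.0.0 and the labels also name hg19. The annotation release is not given in the sources used here. Of 62754 genes, 60878 were matched to a symbol.

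Counts were scaled by TMM, filtered by filterByExpr (minimum count 10) and tested by the two-sided quasi-likelihood F-test of edgeR 4.0.16 (R 4.3.3), with Benjamini-Hochberg adjustment over 20992 genes. The fit was checked on simulated data. A gene was called at an adjusted p of 0.05 or less, and was also counted with a change of 1 or more on the log2 scale in either direction. Each SE was the absolute log2 fold change divided by the square root of the F statistic of its test. Differences of log2 CPM used a prior count of 2. Level per length used all annotated exons. Alternatives were DESeq2 1.42.0, library size without TMM, limma-voom (limma 3.58.1) with quantile normalization, no filter, at least 10 counts in every library, the replicate number as a block and leaving out each library. Where a group was left with fewer libraries, the spread was pooled over both groups. Figures were drawn with matplotlib 3.10.9.

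The members and lists were chosen with earlier results of these data known. From the further lists, genes were named at that threshold, or at a log2 change of 1 or more in either direction with or without control replicate 3, beside BIRC5, and 1 further gene that the rule names is not reported here. Overlapping genes were named where they bear on counting. Raw reads and immunoblots were not analysed here.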

Additional observations from a re-analysis of the deposited data

How the results depend on the processing

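The 10 members were refitted under 12 alternatives, which gave 120 values: 101 kept their direction and their side of the threshold, 7 became calls, 8 lost a call and 4 changed sign. BCL2L1 and PMAIP1 were lower under every alternative, and BCL2 higher. The number of members called, 2 over all libraries, lay between 0 and 7 when a library was left out: 7 without control replicate 3, 1 without control replicate 2 and 0 in edgeR without knockout replicate 1, 2 or 3, where 2 members had an unadjusted p under 0.05 each time. DESeq2 called 3. When a library was left out, further family genes called ranged from 0 to 7, downstream genes from 1 to 11, regulators from 0 to 9 and all genes from 167 to 14221, the highest each time without control replicate 3. For the further family and the regulators, edgeR counts of 0 came with 1 to 3 genes at an unadjusted p under 0.05. With the replicate number as a block, 1 member (BCL2L1), 1 further family gene, 1 downstream gene, 0 regulators (4 at an unadjusted p under 0.05; DESeq2 without the block called 2) and 407 genes in all were called, and the FAM60A log2 fold change was −0.84 (edgeR adjusted p = 0.0551). No pairing by number was seen: deviations of same-numbered libraries correlated at 0.01, 0.03 and −0.04, and not every library correlated best with its own number. With 3 libraries in a group these correlations cannot exclude a pairing. DESeq2 called 6 downstream genes, 2 regulators and 5581 genes in all, and no filter left 1 downstream gene called. FAM60A lay between −0.92 and −0.78 when a library was left out. The log2 fold change of MCL1 changed sign with the block (0.015) and ranged from −0.27 to 0.076 when a library was left out (below 0 without control replicate 3, above 0 without control replicate 1 or 2). None of the values above 0 was called. By library size without TMM, 68.4% of 3903 calls were lower, against 52.1% of 3491 with TMM, and the median of all genes moved from −0.01 to −0.12. The cause was not tested for any of these. Every member held at least 889 counts in every library, so counting error was small beside the spread between control libraries.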

Other observations

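The genes around PMAIP1 were looked at after its values were seen. On GRCh38 PMAIP1 lies on chromosome 18 from 59899996 to 59904305, and SINHCAFP2, a processed pseudogene of FAM60A, lies on the same chromosome from 60016590 to 60017484, 112 kb away. Each of the 3 guide RNAs against FAM60A had an exact match in the annotated SINHCAFP2 transcript and none in those of PMAIP1. Of the 3, gRNA 2 alone also matched SINHCAFP1, another FAM60A pseudogene. SINHCAFP1 was lower too, at 18, 21 and 30 counts after knockout beside 109, 94 and 133 in controls. By edgeR its log2 change was −2.13 (adjusted p = 0.00809), so SINHCAFP1 and SINHCAFP2 were both lower, and why was not tested. SINHCAFP2 held 682, 605 and 776 counts in controls, against 152, 123 and 161 in knockout libraries, a log2 fold change of −2.08 (edgeR adjusted p = 0.00404), and its reads can be shared with FAM60A. Whether the genome was cut or altered there was not measured, and a part of it in the PMAIP1 value was not tested.

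Of the protein-coding neighbours on the other side of PMAIP1, CCBE1 at 202 kb had a log2 fold change of 0.67 (edgeR adjusted p = 0.0899) and LMAN1 at 541 kb one of 0.12 (edgeR adjusted p = 0.451). SEC11C at 741 kb had a log2 fold change of −0.86 (edgeR adjusted p = 0.0961), with 17139, 17682 and 7940 counts in control replicates 1, 2 and 3, against 7405, 6657 and 7028 in knockout libraries. RAX at 627 kb had a log2 fold change of −2.55 (edgeR adjusted p = 0.0826) and ZNF532 at 914 kb one of −0.76 (edgeR adjusted p = 0.246). Without control replicate 3 these were −3.09 and −1.17, and both genes were called lower (edgeR adjusted p = 9.68e-12 and 3.71e-11). In that fit SEC11C was also called lower (−1.18, edgeR adjusted p = 2.4e-11). CCBE1 was called higher (0.43, edgeR adjusted p = 0.000151) and LMAN1 was not called (0.02, edgeR adjusted p = 0.858). These calls stand beside 65.6% of all genes called in that fit. MC4R, at 467 kb, was the only protein-coding gene found within 1000 kb of PMAIP1 on the side of SINHCAFP2. MC4R held 29, 20 and 1 counts in controls, against 6, 3 and 3 in knockout libraries. It did not pass the filter on low counts over the 6 libraries. Without control replicate 3 it passed the filter and was called lower (log2 fold change −2.45, edgeR adjusted p = 7.19e-05). NFE2L3P1, a pseudogene between PMAIP1 and SINHCAFP2 at 63.5 kb, held 2, 4 and 3 counts in controls, against 11, 13 and 8 in knockout libraries. It passed the filter only without control replicate 3 and was then called higher (log2 fold change 1.91, edgeR adjusted p = 0.00737). BCL2, which lies on chromosome 18 from 63123346 to 63320090, was not lower in knockout cells.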
